A study of Mus musculus with 6 samples.

Results

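The genes described here are 9 of the 23557 genes measured in CT26 tumors, Clk1, Clk2, Clk3, Clk4, Srpk1, Srpk2, Ccnl1, Ccnl2 and Cdk11b. They encode the CLK and SRPK kinases, which phosphorylate SR splicing factors, and the L-type cyclins with their kinase partner CDK11B. They were taken as a family, by name, and the family was chosen by the measured p values of Clk1 and Clk4, which ranked 1 and 6 of 13118 tested genes in the comparison of H89-treated with NaCl tumors. The differences between treatments given below for these 9 genes are therefore a description of values that entered the choice. The counts of members past a test threshold are printed with the count or share of all genes, and support nothing. All 9 were expressed well above the filter on low counts, with 617 to 4177 estimated counts in any one tumor, and all 9 were tested.

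CT26 is a murine colorectal carcinoma line that grows in mice of its own strain, Balb/c, which keep their immune system. H89 is a kinase inhibitor, best known for blocking the cAMP-dependent protein kinase PKA, and it also acts on other kinases. Per the methods of the study, 7-week-old female mice received 500000 CT26 cells under the skin, and treatment began after 6 days. H89-treated mice (3 tumors) were given H89 at 10 mg/kg in NaCl by intraperitoneal injection 2 times a week, control mice (3 tumors) received NaCl by the same route, and both groups carried the same CT26 cells. Each tumor was taken on day 14, frozen, and its total RNA was sequenced on the BGISEQ-500 platform. The tumors are bulk tissue, in which fewer cells of a type and less RNA per cell cannot be told apart, and no pooling of mice is stated.

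SR proteins carry a domain rich in arginine and serine (RS) repeats, and they bind pre-mRNA and recruit the splicing machinery. SRPK kinases phosphorylate the RS domain mainly in the cytoplasm, which lets SR proteins enter the nucleus, and CLK kinases phosphorylate it further in the nucleus, which releases SR proteins from the nuclear speckles where they are stored. L-type cyclins carry an RS domain of their own, reside in speckles and activate CDK11, a kinase of the splicing and transcription machinery. Several of these genes are known to make transcripts that keep an intron or are degraded, and CLK1 and CLK4 are known to tune their own splicing in this way.

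The total estimated count was 27067349 to 31958793 per tumor. Values are given as counts per 1000000 (CPM) after TMM scaling, a correction for the make-up of each library that moved the totals by factors of 0.956 to 1.063. The 10 most abundant genes took 8.03% to 8.41% of the counts in NaCl tumors and 11.9%, 11.0% and 7.16% in H89-treated tumors 1 to 3. Of 6 markers of carcinoma epithelium, Epcam (0 to 1.18 CPM) and Vil1 (0.0731 to 0.186 CPM) were near 0 in these tumors, and Krt18 was the most abundant at 7.75 to 23.5 CPM.

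Clk1 and Clk4, the pair of CLK kinases most alike in sequence, had the largest log2 fold changes of the members. Clk1 stood at 70.9, 71.9 and 67.8 CPM in NaCl tumors 1 to 3 and at 120.9, 120.8 and 118.4 CPM in H89-treated tumors 1 to 3. The values lay close together within each group (coefficients of variation 3.02% and 1.20%, against medians of 9.71% and 11.0% over all tested genes). Counting error alone would give about 2.28% and 1.63% at these counts, so the measured spread of Clk1 was of the size of counting error. The lowest H89-treated tumor was 46.5 CPM above the highest NaCl tumor. The log2 fold change of Clk1 was 0.77 (SE 0.07, n = 3 tumors per group), which is 1.71-fold.

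Clk4 was measured at 22.8, 23.0 and 24.4 CPM in NaCl tumors and 40.3, 41.3 and 38.9 CPM in H89-treated tumors. Its groups were likewise apart, and its spread (3.89% and 3.04%) was also of the size of counting error (3.95% and 2.82%). Its log2 fold change was 0.78 (SE 0.08, n = 3 per group), or 1.72-fold, and Clk4 CPM as a percentage of Clk1 CPM was 33.4% ± 2.31 (SD, n = 3) in NaCl and 33.4% ± 0.673 in H89-treated tumors.

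Clk2 and Clk3, the other CLK kinases, did not move together. Clk2 was measured at 54.4, 58.8 and 50.8 CPM in NaCl tumors and at 78.9, 77.5 and 69.2 CPM in H89-treated tumors, with no overlap and a log2 fold change of 0.46 (SE 0.09, n = 3 per group). Clk3 was at 51.4, 43.5 and 50.5 CPM in NaCl tumors and at 44.5, 45.6 and 54.8 CPM in H89-treated tumors. The Clk3 groups overlapped, the highest value being H89-treated tumor 3, and the log2 fold change was -0.005 (SE 0.11, n = 3 per group).

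The L-type cyclins, which lead CDK11 to speckles, were both higher in each H89-treated tumor. Ccnl1 was at 68.6, 72.3 and 78.4 CPM in NaCl tumors and at 117.0, 111.1 and 111.4 CPM in H89-treated tumors, 0.63 higher on the log2 scale (SE 0.08, n = 3 per group). Ccnl2 was at 90.5, 94.6 and 92.0 CPM in NaCl tumors and at 128.3, 126.6 and 125.4 CPM in H89-treated tumors, 0.46 higher on the log2 scale (SE 0.07, n = 3 per group). Ccnl2 had the smallest spread of the members in H89-treated tumors (coefficient of variation 1.19%). The ratio of Ccnl1 to Ccnl2 CPM was 75.8%, 76.4% and 85.2% in NaCl tumors and 91.2%, 87.8% and 88.8% in H89-treated tumors, again without overlap.

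Cdk11b, the kinase that both L-type cyclins activate, showed overlapping groups. It was at 83.7, 77.0 and 74.4 CPM in NaCl tumors and at 99.3, 78.5 and 74.9 CPM in H89-treated tumors, where tumor 1 alone stood high, and its log2 fold change was 0.10 (SE 0.12, n = 3 per group). Cdk11b and Ccnl2 lie 162550 bases apart on chromosome 4 of GRCm38.

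The SRPK kinases were nearer to equal between the groups than Clk1 or Clk4. Srpk1 was at 120.7, 121.8 and 117.3 CPM in NaCl tumors and at 143.1, 127.0 and 116.3 CPM in H89-treated tumors. These groups overlapped, with H89-treated tumor 1 highest and H89-treated tumor 3 lowest of all 6, and the log2 fold change was 0.10 (SE 0.09, n = 3 per group). Srpk2 was at 40.9, 40.5 and 45.1 CPM in NaCl tumors and at 51.9, 52.8 and 49.2 CPM in H89-treated tumors, which did not overlap, with a log2 fold change of 0.28 (SE 0.08, n = 3 per group).

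**Figure D1:**
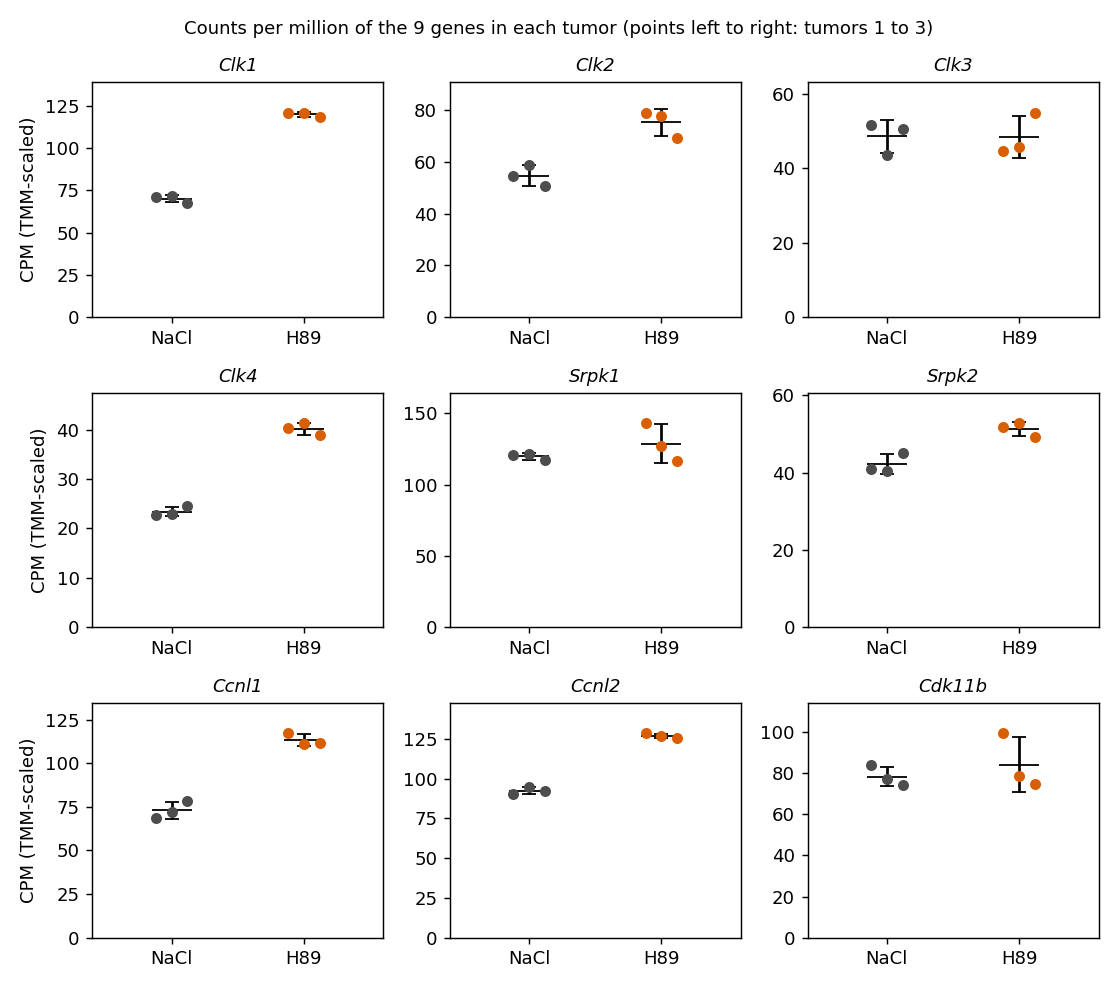
TMM-scaled counts per 1000000 (vertical axis, from 0) of each gene in NaCl tumors (grey points) and H89-treated tumors (orange points), with the mean and SD of 3 tumors as a bar. The groups are apart for Clk1, Clk2, Clk4, Srpk2, Ccnl1 and Ccnl2 and overlap for Clk3, Srpk1 and Cdk11b.

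Across the 9 genes, 6 had all H89-treated tumors above all NaCl tumors, none had them all below, and 8 had a log2 fold change above 0. Of all tested genes, 15.2% had the H89-treated tumors all above and 15.5% all below. Clk1, Clk4, Ccnl1 and Ccnl2, 4 of the 9, had an adjusted p under 0.05 in edgeR's quasi-likelihood test with Benjamini-Hochberg adjustment, all of them higher with H89. Over all tested genes, 1.59% passed in either direction, 0.861% as higher and 0.724% as lower with H89. The median log2 fold change was 0.46 over the members and 0.004 over all tested genes. An unadjusted p under 0.05 was found for 6 of the 9 and for 25% of all tested genes. Because Clk1 and Clk4 led to the choice of the family, nothing is read from these counts. When any 1 of the 6 tumors was left out, 0 to 12 of all tested genes passed, and no member did, except Clk1 without H89-treated tumor 3.

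A trend of log2 fold change over GC content and transcript length was fitted across tested genes, without a measure of its strength. Several members have AT-rich transcripts. The fitted trend was 0.20 at the GC content and length of Clk1 and 0.01 at those of Clk2. The longest transcript has 39.2% GC for Clk1, 38.8% for Clk4, 40.5% for Srpk2, 41.0% for Ccnl1, 44.8% for Srpk1 and 46.9% for Ccnl2, all under the median of 49.7% over tested genes, and 52.3% to 55.4% for Cdk11b, Clk3 and Clk2. After a smooth trend over GC content and length of all tested genes was subtracted, the log2 fold change was 0.57 for Clk1, 0.58 for Clk4, 0.47 for Ccnl1, 0.45 for Clk2 and 0.36 for Ccnl2. For Srpk2 it was 0.08 and for Srpk1 -0.03, so that the Srpk1 value changed sign. The median over all genes was -0.07 on that scale, against 0.004 before the subtraction. The part of GC content and length in these differences was not tested further.

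**Figure D2:**
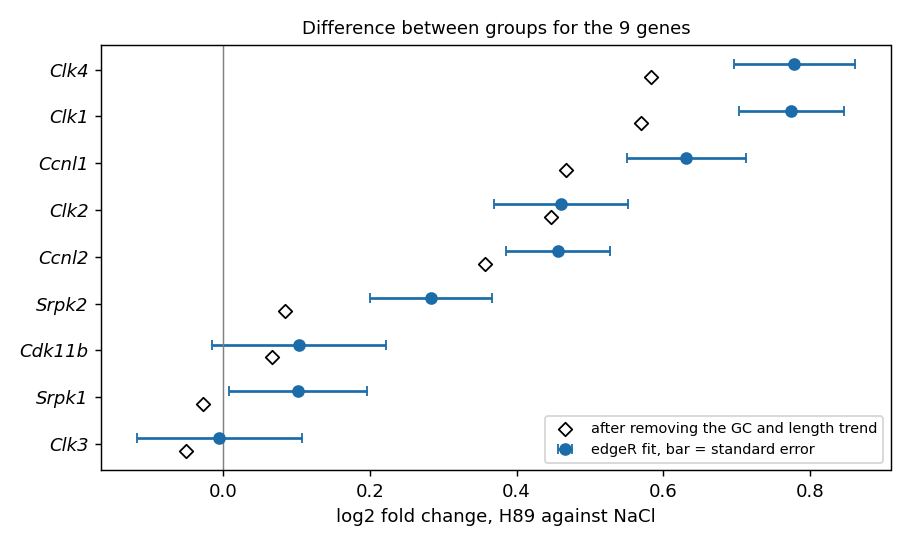
Log2 fold change of each gene, H89 against NaCl, from the edgeR fit (blue points, bars are standard errors, 3 tumors per group) and after subtraction of the GC and length trend of all tested genes (open diamonds). Clk4 and Clk1 lie near 0.78 and 0.77 and fall to 0.58 and 0.57, Clk2 stays near 0.45, and Srpk2 falls from 0.28 to 0.08.

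To compare levels between genes, counts were divided by the length of the longest annotated transcript in kilobases and scaled so that the levels of each tumor summed to 1000000. In NaCl tumors, Cdk11b (a length-scaled level of 56.4 ± 2.54, SD, n = 3) and Srpk1 (55.3 ± 2.13) were highest and did not differ beyond their spread. Ccnl2 (50.0 ± 2.57) came next, then Ccnl1 (40.4 ± 3.32) and Clk2 (39.4 ± 3.67), which overlapped each other. Below them stood Clk1 (32.9 ± 1.52), Clk3 (26.8 ± 1.76), and, overlapping each other, Clk4 (15.1 ± 0.771) and Srpk2 (14.8 ± 0.959).

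In H89-treated tumors the order per length was led by the cyclins, with Ccnl2 at a length-scaled level of 78.7 ± 2.80 (SD, n = 3) and Ccnl1 at 71.6 ± 1.18. Cdk11b (69.3 ± 7.88), Srpk1 (67.9 ± 4.99), Clk1 (64.6 ± 2.72) and Clk2 (62.1 ± 4.18) followed, each overlapping the gene above it in the order. Clk3 (30.7 ± 4.24) and Clk4 (29.7 ± 1.69) overlapped, and Srpk2 was lowest at 20.7 ± 1.17. Per-length levels serve here for the order within a group only, since on this scale the median log2 ratio of H89-treated to NaCl tumors over 12920 genes was 0.20, against 0.003 in CPM.

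The order also depended on the length used. With the mean length of all annotated transcripts, the NaCl order was Srpk1 (a level of 82.5), Cdk11b (76.1), Clk1 (61.7), Ccnl1 (57.9), Ccnl2 (48.6), Clk2 (46.9), Clk3 (32.2), Clk4 (29.7) and Srpk2 (26.8). Clk1 and Ccnl1 overlapped in this order, as did Ccnl2 and Clk2, Clk3 and Clk4, and Clk4 and Srpk2.

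**Figure D3:**
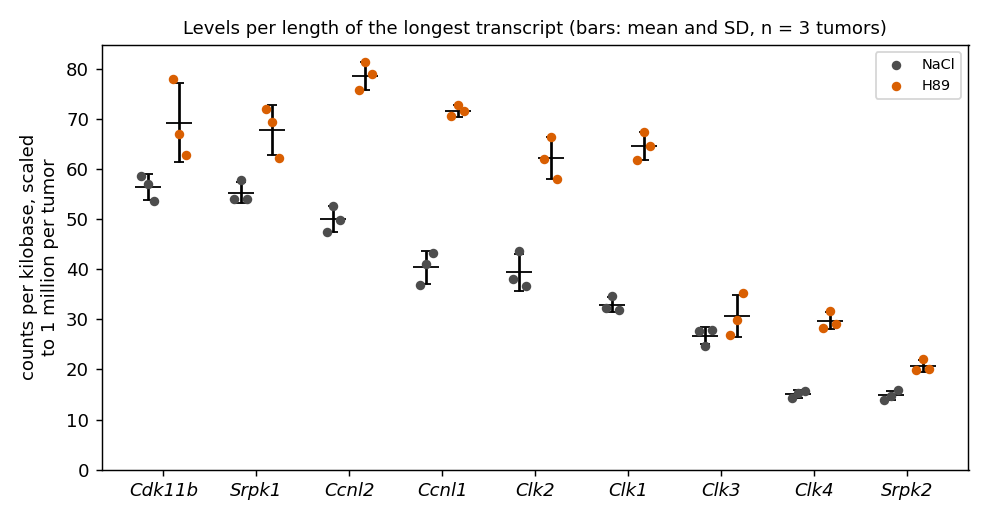
Counts per kilobase of the longest transcript, scaled to a sum of 1000000 per tumor (vertical axis, from 0), for each gene in order of its NaCl mean, with NaCl tumors in grey and H89-treated tumors in orange and bars for mean and SD (n = 3). Cdk11b leads in NaCl tumors at 56.4 and Ccnl2 in H89-treated tumors at 78.7, while Srpk2 is lowest in both at 14.8 and 20.7.

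The shares within the CLK family, taken per length, differed between the groups. The scaling of a library cancels in any such share. Clk1 made up 28.8%, 29.3% and 28.4% of the summed CLK level in NaCl tumors and 34.6%, 34.5% and 34.6% in H89-treated tumors. Clk3 made up 24.6%, 20.9% and 24.9% in NaCl tumors and 14.98%, 15.3% and 18.8% in H89-treated tumors. Both sets of values were apart, Clk1 taking the larger share with H89 and Clk3 the smaller. Clk2 held 34.5% ± 2.15 (SD, n = 3) and 33.2% ± 1.92, which overlapped, and Clk4 13.2% ± 0.733 and 15.9% ± 0.301, which did not. In the SRPK pair, Srpk2 held 20.6%, 20.2% and 22.7% in NaCl tumors and 21.7%, 24.1% and 24.4% in H89-treated tumors, with overlap. These shares restate the same counts as the fold changes above.

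Apart from treatment, the members did not vary as 1 group. Deviations of log2(CPM + 0.5) from the group means were compared over the 6 tumors, as a description of few points that share libraries. Clk4 and Srpk2 deviated together (Pearson r = 0.97), as did Srpk1 and Cdk11b (r = 0.91), both of which were raised in H89-treated tumor 1, and Clk1 and Clk2 (r = 0.88). Clk3 deviated in the opposite direction to Clk2 (r = -0.92) and Ccnl2 (r = -0.85). Clk1 and Clk4, alike in their group means, had r = -0.47 within groups, and Clk1 and Ccnl1 r = -0.62. The spread of Clk1, Clk4 and Ccnl2 was of the size of counting error, so their deviations may be largely counting error. No relation is read from the correlations of these genes.

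Over all 6 tumors, treatment included, the profile of Clk1 was most like that of Ccnl2 among the members (r = 0.996), followed by Clk4 (0.989), Ccnl1 (0.971), Clk2 (0.957) and Srpk2 (0.907). Srpk1 (0.51), Cdk11b (0.35) and Clk3 (-0.08) were far from it. Among genes that are not members, 225 had r above 0.95 with Clk1, the highest being Paxbp1 (0.999), Mapk9 (0.996), Stx16 (0.996), Pnisr (0.995) and Med23 (0.994). Paxbp1, for example, was at 43.2, 43.9 and 41.7 CPM in NaCl tumors and at 62.6, 64.0 and 62.4 CPM in H89-treated tumors. Within groups other genes were nearest to Clk1, namely Tubb3 (0.997), Zfp458 (0.996), Gdf11 (0.995), Acot1 (0.995) and Erg28 (0.994). With only 6 tumors, and with deviations of Clk1 of the size of counting error, 76 genes exceeded 0.95 within groups.

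All members except Cdk11b have annotated transcripts that retain an intron. On GRCm38 with GENCODE M21, Clk1 (ENSMUSG00000026034, chr1:58410189-58424066, minus strand) has 13 transcripts, of which 7 are annotated as retained intron and 2 as subject to nonsense-mediated decay. Clk4 (ENSMUSG00000020385, chr11:51261730-51281766, plus strand) has 14, of which 7 retain an intron and 3 are decay targets. Ccnl1 (ENSMUSG00000027829, chr3:65946151-65958249, minus strand) has 14, with 8 and 5, the most of the members in both classes. Of the matched tested genes, 58.0% have at least 1 retained-intron transcript and 2.33% have at least 7, a number that Clk1, Clk4 and Ccnl1 reach. Cdk11b (ENSMUSG00000029062, chr4:155624854-155649938, plus strand) has 8 transcripts and none of either class. The deposited values are gene totals, so which transcripts carried the counts was not analysed here.

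The remaining members lie apart from each other in the genome. Clk2 (ENSMUSG00000068917) is at chr3:89164795-89176921 on the plus strand, Clk3 (ENSMUSG00000032316) at chr9:57750624-57765860 on the minus strand, and Ccnl2 (ENSMUSG00000029068) at chr4:155812489-155824543 on the plus strand. Srpk1 (ENSMUSG00000004865) is at chr17:28587648-28622709 and Srpk2 (ENSMUSG00000062604) at chr5:23503264-23684617, both on the minus strand. Exons of Clk3, Srpk2 and Ccnl1 overlap exons of Edc3, Kmt2e and Gm37305 on the opposite strand, and those of Clk4 overlap Gm25082 on its own strand. Whether counting used strand is not given in the sources used here, so reads of these 4 members may be shared with their neighbours. Estimated counts of Ccnl1, Ccnl2 and Cdk11b lay within 0.0055 of whole numbers in every tumor, and those of Clk1 within 0.0434. Those of Clk2, Clk3, Clk4, Srpk1 and Srpk2 deviated by 0.304 to 0.5 at most.

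The sequences before the start sites are shown because PKA, the best-known target of H89, acts on transcription through CREB, a factor that binds the cAMP response element TGACGTCA and its shorter form TGACG. RefSeq entries on GRCm38.p6 were at hand for 8 members, though not for Clk1, and the 250 bases before each start were searched on both strands. TGACGTCA, which is its own reverse complement and contains TGACG on each strand, occurred before Ccnl1, 18 bases from the start, and before Clk4, 65 bases from the start. It occurs in 1.55% of all 32851 such windows and in 2.93% of the 10375 tested genes with an entry. Capitals mark TGACG or its complement CGTCA, and each sequence is written 5′ to 3′ on the strand of its gene. The first 2 hold the whole element, Ccnl2 holds only the shorter form, and Clk3, whose groups overlapped, is shown beside them. The windows are chr3:65958250-65958499 (minus strand) for Ccnl1, chr11:51262864-51263113 (plus) for Clk4, chr4:155812239-155812488 (plus) for Ccnl2 and chr9:57765115-57765364 (minus) for Clk3.
Ccnl1: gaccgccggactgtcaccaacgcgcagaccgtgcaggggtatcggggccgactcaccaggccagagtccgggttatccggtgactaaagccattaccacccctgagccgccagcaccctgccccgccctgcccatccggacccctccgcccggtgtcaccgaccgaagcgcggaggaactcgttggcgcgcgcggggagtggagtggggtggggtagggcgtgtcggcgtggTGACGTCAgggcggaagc
Clk4: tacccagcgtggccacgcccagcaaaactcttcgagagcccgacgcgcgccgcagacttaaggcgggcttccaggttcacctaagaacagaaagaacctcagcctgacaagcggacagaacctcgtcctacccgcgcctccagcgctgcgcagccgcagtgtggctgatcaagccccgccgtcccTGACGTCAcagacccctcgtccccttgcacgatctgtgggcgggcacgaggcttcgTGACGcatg
Ccnl2: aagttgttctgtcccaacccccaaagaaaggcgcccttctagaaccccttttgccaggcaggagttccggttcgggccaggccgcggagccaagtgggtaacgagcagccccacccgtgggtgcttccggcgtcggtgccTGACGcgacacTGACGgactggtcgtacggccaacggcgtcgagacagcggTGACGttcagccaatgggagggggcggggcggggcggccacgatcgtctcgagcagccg
Clk3: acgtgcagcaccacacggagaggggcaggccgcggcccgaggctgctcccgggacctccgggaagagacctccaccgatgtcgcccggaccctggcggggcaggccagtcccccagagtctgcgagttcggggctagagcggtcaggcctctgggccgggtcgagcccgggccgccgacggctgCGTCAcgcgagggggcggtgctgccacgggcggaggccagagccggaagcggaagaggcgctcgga

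TGACG on either strand occurred 3 times before Clk4 and Ccnl2, 2 times before Ccnl1 and Cdk11b and 1 time before Clk2 and Clk3. No match lay in the window of Srpk1 or in any of the 3 windows of Srpk2. Thus 6 of the 8 members had TGACG, a motif found in 17.8% of all windows and 29.5% of tested genes with an entry, and Clk3 and Cdk11b, whose groups overlapped, were among the 6. Over the tested genes, the median log2 fold change was -0.02 with TGACG in the window and 0.01 without it, and -0.04 with TGACGTCA and 0.003 without it. GGGCGG, the core of the GC box, occurred before all 8 members and before 62.1% of tested genes with an entry, and CCAAT before 3 of the 8 and before 40.7%. These matches describe the letters of the windows, and binding was not measured.

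Among the substrates of these kinases, the SR proteins, 12 of 13 passed the filter on low counts (Srsf12 did not). In this list 1 gene rose, none fell and 11 did not pass the test, where 1.59% of all tested genes passed. The median log2 fold change was 0.18. An unadjusted p under 0.05 was found for 5 of the 12, against 25% of all tested genes. The gene that rose was Srsf5, at 142.5, 144.6 and 146.7 CPM in NaCl tumors and 229.4, 241.3 and 220.7 CPM in H89-treated tumors (log2 fold change 0.67, SE 0.08, edgeR adjusted p = 0.0338, n = 3 per group). Its groups were far apart, as those of Clk1 were.

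Of 23 other RS-domain and nuclear speckle proteins, 2 rose, 1 fell and 20 did not pass the test, where 1.59% of all tested genes passed, and the median log2 fold change was 0.09. An unadjusted p under 0.05 was found for 11 of the 23, against 25% of all tested genes. Pnn, a speckle protein tied to cell adhesion genes, rose from 59.1, 65.8 and 60.0 CPM to 99.6, 88.2 and 83.6 CPM (log2 fold change 0.55, SE 0.09, edgeR adjusted p = 0.0415). Rsrp1, a protein rich in arginine and serine, rose from 176.4, 144.0 and 132.1 CPM to 253.9, 233.8 and 236.0 CPM (log2 fold change 0.68, SE 0.12, edgeR adjusted p = 0.0443). Rnps1, a splicing activator of the exon junction complex, fell from 98.8, 91.0 and 86.8 CPM to 67.6, 68.1 and 70.9 CPM (log2 fold change -0.42, SE 0.08, edgeR adjusted p = 0.0492). The groups of all 3 genes were apart. Rnps1 did not pass with a filter of 5 CPM (adjusted p = 0.0528 in edgeR), with voom (0.0518 in limma) or with quantile normalization (0.0749 in limma), and its adjusted p ranged from 0.000929 in DESeq2 to 0.142 in edgeR without NaCl tumor 3.

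The other cyclin-dependent kinases of transcription and their cyclins, 13 genes, held 1 that rose, Ccnt2, a cyclin partner of CDK9 in the elongation factor P-TEFb. Ccnt2 was at 46.2, 48.2 and 51.9 CPM in NaCl tumors and at 84.0, 90.0 and 84.6 CPM in H89-treated tumors (log2 fold change 0.82, SE 0.08, edgeR adjusted p = 0.0288, n = 3 per group), a point estimate above that of every member. The other 12 did not pass the test, where 1.59% of all tested genes passed. Of the 13, 4 had an unadjusted p under 0.05 (25% of all tested genes did), and the median log2 fold change was 0.07. When any 1 of the 6 tumors was left out, Srsf5, Pnn, Rsrp1 and Rnps1 no longer passed, and Ccnt2 passed only without H89-treated tumor 3.

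Kinases related to the CLK family did not pass the test. Of 11 such genes (Srpk3, PRP4, DYRK and HIPK kinases), 10 passed the filter and none was called by edgeR, where 1.59% of all tested genes were. In edgeR 2 of the 10 had an unadjusted p under 0.05 (25% of all tested genes did). DESeq2 called none either, and the median log2 fold change was -0.03. The smallest p was that of Hipk4, at 2.19, 3.13 and 2.74 CPM in NaCl tumors and 4.46, 5.05 and 3.53 CPM in H89-treated tumors (edgeR adjusted p = 0.120).

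The 8 genes for the nuclear import of SR proteins (Tnpo3), their dephosphorylation (Ppp1 genes) and the AKT kinases, which act on SRPK, had a median log2 fold change of -0.18. All H89-treated tumors lay below all NaCl tumors for 4 of the 8, against 15.5% of all tested genes. None was called by edgeR, where 1.59% of all tested genes were, and 2 of the 8 had an unadjusted p under 0.05, against 25%. DESeq2 called 2 of the 8, and 1392 of 18837 genes over the whole table. Akt2 had the smallest p, at 224.7, 202.2 and 204.8 CPM in NaCl tumors and 174.5, 164.3 and 171.2 CPM in H89-treated tumors (log2 fold change -0.31, SE 0.08, edgeR adjusted p = 0.0847).

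CLK kinases are known to respond to small shifts of temperature, so 7 heat shock genes and the cold-induced genes Cirbp and Rbm3 were examined as well. None was called by edgeR or DESeq2 and none had an unadjusted p under 0.05 in edgeR. Over all tested genes, edgeR called 1.59%, and 25% had an unadjusted p under 0.05. The smallest p was that of Dnajb1, a heat shock co-chaperone (log2 fold change -0.34, SE 0.19, edgeR adjusted p = 0.304). The median log2 fold change was -0.08 for the heat shock genes and -0.10 for the cold-induced genes.

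**Figure D4:**
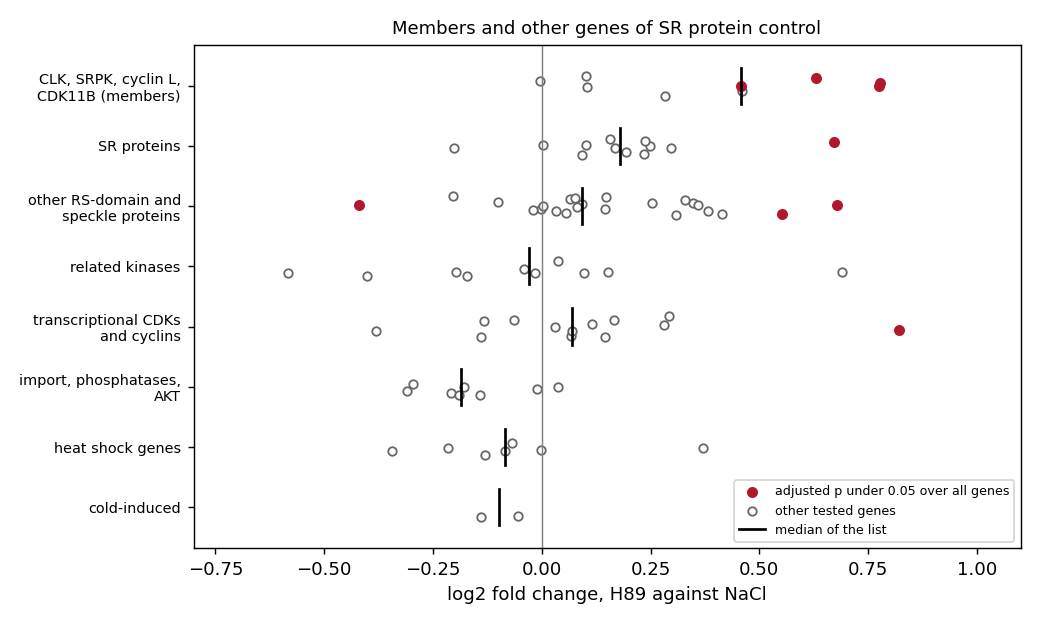
Log2 fold change of each tested gene, H89 against NaCl, for the 9 genes in the top row and for the lists around them, with black bars for the median of each list and red points for an edgeR adjusted p under 0.05. The top row reaches 0.78 with a median of 0.46, Srsf5, Pnn, Rsrp1 and Ccnt2 stand out to the right, and Rnps1 to the left at -0.42.

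Markers of other cell types were summed for each tumor, and none of the marker genes was called by edgeR. The 5 fibroblast markers summed to 2171 to 2437 CPM in NaCl tumors and 2449 to 3136 CPM in H89-treated tumors. These sums did not overlap, as for the 6 members without overlap, Clk1, Clk2, Clk4, Srpk2, Ccnl1 and Ccnl2. The fibroblast sums were apart only narrowly, since NaCl tumor 1 (2437 CPM) lay close to H89-treated tumor 3 (2449 CPM). Col1a2 made up the largest part of every sum, with group means of 1441 CPM (NaCl) and 1795 CPM (H89). Taken singly, 2 of the 5 markers lay all above with H89, where 15.2% of all tested genes did. The 6 T cell markers summed to 10.1 to 21.4 CPM and 21.03 to 51.0 CPM, overlapping only at NaCl tumor 1 and H89-treated tumor 2. All 6 had a log2 fold change above 0, with a median of 1.24. An unadjusted p under 0.05 in edgeR was found for 4 of the 6, against 25% of all tested genes. Taken singly, each of the 6 had overlapping groups. The part of these cell types in the values of the members was not tested. The 5 macrophage markers summed to 666 to 1078 CPM and 903 to 1057 CPM, the 4 endothelial markers to 75.4 to 128.9 CPM and 64.1 to 97.4 CPM, and the 6 carcinoma epithelium markers to 14.8 to 26.2 CPM and 11.2 to 15.5 CPM, all with overlap. In the last set, 3 of the 4 tested markers had a log2 fold change above 0, and the median was 0.54. Krt18 went the other way, at 13.2, 13.3 and 23.5 CPM in NaCl tumors and 8.31, 7.75 and 8.27 CPM in H89-treated tumors. Its groups were apart, as for 15.5% of all tested genes in this direction (log2 fold change -1.04, SE 0.23, edgeR adjusted p = 0.0653). The study reports Krt18 as downregulated, using DESeq2 with Bonferroni adjustment and a cutoff on fold change, unlike the test used here.

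H89-treated tumor 1, highest for Srpk1 and Cdk11b, also had the highest sum of the 4 skeletal muscle markers, 16.7 CPM against 0.292 to 1.73 CPM in the other tumors. These markers summed to 0.669 CPM in each of H89-treated tumors 2 and 3, and their part in the values of the members was not tested. The 4 keratinocyte markers (Krt1 listed at 0 in every tumor) summed to 2.01 to 3.62 CPM, and 3 of the 4 erythroid markers, those that could be matched, to 32.2 to 47.1 CPM in NaCl tumors and 10.2 to 102.1 CPM in H89-treated tumors.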

How the data were processed

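Each of the 6 CT26 tumors (3 NaCl, 3 H89) was 1 row of the deposited table, matched to its group and number by the sample labels. Per the labels, the table holds TPM, but the deposited values summed to 27067349 to 31958793 per tumor rather than 1000000, and the values deposited by the authors were therefore read as estimated counts per gene, scaled for neither library size nor length. The submitters' processing notes name kallisto, DESeq2 and GRCm38. Their versions, the annotation and any filter are not given in the sources used here. Of 133 genes, those named here and in the lists, the columns were recorded one by one, and the other 23424 were read in the same way.

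For testing, the estimated counts were rounded. Genes averaging 0.5 CPM or more over the 6 tumors (13118) were tested with edgeR 4.0.16 (R 4.3.3, TMM, glmQLFit, glmQLFTest, a model of treatment alone, Benjamini-Hochberg over all tested genes), in code tested on simulated data. CPM use the TMM-scaled library sizes. With 617 or more counts per member and tumor, counting error was 1.58% to 3.95% of the mean, about as large as the measured spread of Clk1 (H89), Clk4 and Ccnl2 (H89), so both depth and 3 tumors per group limit the precision. P-values and SE rest only on the spread between these tumors, with the spread of each gene drawn toward a trend over all tested genes. Lengths, GC content and transcript classes came from GENCODE M21 (23007 genes matched by symbol), start sites from RefSeq on GRCm38.p6. The GC and length trend was a loess fit (span 0.3) over tested genes. The alternatives tried were dropping the filter, raising it to 5 CPM, median ratio or quantile normalization, DESeq2 1.42.0, voom and limma 3.58.1 (pseudocounts 0.5 and 5), a block for the replicate number, and leaving out 1 tumor at a time.

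The members and lists were chosen with earlier results of these data known. Genes named are all members, from each list those with an adjusted p under 0.05 (at most 5) or else the smallest p, and the 5 genes most like Clk1 by each measure. Markers were to be given as lists only, and Krt18, Epcam, Vil1, Krt1 and Col1a2 were named after their values were seen.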

Additional observations from a re-analysis of the deposited data

How the results depend on the processing

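The number of genes called was 208 of 13118 in edgeR and 80 of 13118 with quantile normalization. DESeq2, fitted without the filter on low counts, called 1392 of 18837. Among these were 8 of the other RS-domain and speckle proteins against 3 in edgeR, and 2 of the import, phosphatase and AKT genes against 0. Leaving out 1 tumor gave 0 to 12 genes, 0 to 1 members, 0 SR proteins, 0 of the other RS-domain and speckle proteins and 0 to 1 of the transcriptional cyclin-dependent kinases and cyclins. Those kept were Clk1 and Ccnt2, both without H89-treated tumor 3. The log2 fold change ranged over 17 fits from 0.57 to 0.82 for Clk1, 0.58 to 0.81 for Clk4, 0.47 to 0.68 for Ccnl1, 0.36 to 0.52 for Ccnl2 and 0.41 to 0.52 for Clk2, from 0.08 to 0.33 for Srpk2, and on both sides of 0 for Clk3, Srpk1 and Cdk11b. Clk2 passed with DESeq2 and with a mean of at least 5 CPM.

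Over all tested genes, deviations of same-numbered tumors had correlations of 0.163, 0.061 and -0.025, and those of differently numbered tumors -0.373 to 0.35. With 3 tumors per group, these values cannot show whether the numbers pair the tumors. With the replicate number as a block, 0 genes were called, hence 0 members, 0 SR proteins, 0 other RS-domain proteins and 0 transcriptional kinases and cyclins. An unadjusted p under 0.05 in edgeR was then found for 3750 of 13118 genes and 6 of the 9 members. The log2 fold change of Clk1 was 0.77 there too. The cause of these changes was not tested.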
